A study of Homo sapiens with 16 samples.

Results

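The 10 genes described here are transcriptional readouts of the ERK mitogen-activated protein kinase pathway: the ERK phosphatases DUSP4, DUSP5 and DUSP6, the pathway inhibitors SPRY2, SPRY4 and SPRED1, the PEA3-group transcription factors ETV4 and ETV5, PHLDA1, and the immediate early transcription factor EGR1. They were taken by symbol from a table of 26229 genes, and all 10 were present. The table held 16 RNA-seq libraries from A431, a human epidermoid carcinoma line with EGFR amplification, and HaCaT, a spontaneously immortalised human skin keratinocyte line, both grown in DMEM with 10% FCS. Each line contributed 3 libraries with siRNA against YAP1 (siYAP), 1 library with control siRNA (siCTRL), 3 libraries expressing YAP5SA (YAP1 S5A in the labels), a constitutively active mutant of the transcriptional co-activator YAP, and 1 library with empty vector. The siRNA libraries had no expression vector and the vector libraries had no siRNA. siRNA was delivered in a pair of transfections 24 h apart and RNA was taken 48 h after the later one. The study's methods describe the vectors as transfected too. Their promoter, transfection reagent and duration of expression were not given in the sources used here. The study's methods call the triplicates biological, and every control was a single library, so a change against a control has no measure of how far that control would vary.

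Growth factor receptors such as EGFR switch on RAS, RAF, MEK and ERK in turn, and active ERK induces its own inhibitors. DUSP6 removes phosphate from ERK in the cytoplasm and DUSP4 and DUSP5 in the nucleus, while Sprouty and SPRED proteins act further up, towards RAS and RAF. The mRNAs of these genes, together with ETV4, ETV5 and PHLDA1, are widely read as a transcriptional output of ERK, and EGR1 is induced within minutes of receptor activation through serum response factor. In keratinocytes, EGFR and ERK signalling is known for supporting proliferation and migration, and YAP works in the nucleus through TEAD factors.

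Library totals ran from 18115624 to 46791673 counts (median 26622174). YAP1 itself followed the labels. It was at 5.04 to 7.0 CPM (counts scaled to library totals and by trimmed mean of M-values) in A431 siYAP against 94.3 in siCTRL. In HaCaT it was at 21.6 to 23.2 CPM against 254. With YAP5SA it was at 1495, 3245 and 2940 CPM in A431 (124 in empty vector). The HaCaT YAP5SA libraries had 7549, 22255 and 10069 CPM (423 in empty vector). Replicate 1 was the lowest in both lines. All 8 keratinocyte markers were detected in both lines, with summed levels of 2937 to 5402 CPM in A431 and 1927 to 7875 CPM in HaCaT. The summed fibroblast, melanocyte, endothelial and immune markers each stayed at or below 59.2 CPM in every library. EGFR ran from 750 to 1358 CPM in A431 and from 298 to 557 CPM in HaCaT.

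Promoter sequences from RefSeq (GRCh38.p14), each 250 bases before and 50 bases after a start site, matched 6 of the 10 genes, and those of DUSP4, DUSP5, ETV4 and ETV5 were not analysed here. The pair below is shown because EGR1 was the one member that passed the test on YAP1 depletion in A431 and SPRY4 had the largest called change with YAP5SA. Motifs were chosen after the values were known and searched on both strands, and capitals mark the matches. The EGR1 promoter (chr5:138465229-138465528, plus strand) held 2 CArG boxes, the element bound by serum response factor, starting at -105 and -83 from the start site. A CArG box was present in 1.29% of the 35116 promoters in the table. The SPRY4 promoter (chr5:142324198-142324497, minus strand) held 1 copy of GGAATG, the TEAD element, on the opposite strand at position 2 of the transcript, and 14% of all promoters held this element.
EGR1: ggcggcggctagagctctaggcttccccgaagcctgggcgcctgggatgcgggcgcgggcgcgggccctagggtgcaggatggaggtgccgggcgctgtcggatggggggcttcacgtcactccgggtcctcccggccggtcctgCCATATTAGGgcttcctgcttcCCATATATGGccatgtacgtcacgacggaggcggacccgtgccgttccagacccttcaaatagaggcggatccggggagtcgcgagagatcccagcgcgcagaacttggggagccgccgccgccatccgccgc
SPRY4: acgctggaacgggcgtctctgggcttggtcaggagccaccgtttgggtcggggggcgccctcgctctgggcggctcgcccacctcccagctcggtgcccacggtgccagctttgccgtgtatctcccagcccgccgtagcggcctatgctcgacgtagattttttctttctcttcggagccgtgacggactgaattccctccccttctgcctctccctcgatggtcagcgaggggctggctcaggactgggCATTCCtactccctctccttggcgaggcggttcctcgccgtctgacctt
The ETS element GGAAGT (22.8% of all promoters) was matched once, in 1 of the SPRY2 promoters at -6, and the AP-1 element TGANTCA (7.71%) was matched in none of the 8 promoters of the 6 genes. The 2 shorter motifs GGAATG and GGAAGT share their first letters, and a match describes letters in the window, not a bound site.

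Levels of the 10 genes differed widely between the 2 lines. Averaged over the 4 treatments, 8 genes were higher in A431 (DUSP4, DUSP5, DUSP6, SPRY4, ETV4, ETV5, PHLDA1 and EGR1), SPRY2 was higher in HaCaT, and SPRED1 did not pass the test (log2 difference 0.17, SE 0.08, edgeR quasi-likelihood test with Benjamini-Hochberg adjustment, FDR = 0.0795). A gene was called at FDR below 0.05 and a mean log2 CPM above 1, and 60.6% of the 14673 genes tested were called between the lines in one direction or the other. The log2 differences of the genes higher in A431 ran from 1.07 for DUSP6 to 3.41 for ETV5. For several members, SPRED1 and ETV5 among them, these averages join siRNA and vector libraries that differed, as given below. The members' median log2 difference was 1.44, against 0.06 over all tested genes. Fewer cells expressing a gene and less RNA per cell cannot be told apart in such bulk libraries.

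SPRY2, a Sprouty inhibitor of receptor tyrosine kinase signalling, was close to absent in A431. Its estimated counts there were 1 in siCTRL, 9, 0 and 0 in siYAP, 2 in empty vector and 2, 0 and 1 in YAP5SA, where 3 counts or fewer are taken as not detected. In HaCaT it stood at 5.08 CPM in siCTRL, at 4.92, 9.52 and 5.65 in siYAP, at 6.21 in empty vector and at 7.17, 6.43 and 6.81 in YAP5SA. Over the 8 libraries of each line this came to 15 counts in A431 and 1553 in HaCaT, a level 96.2-fold higher in HaCaT with a 95% exact counting interval of 58.1 to 172, which covers counting error only. Of the 15 counts, 9 were in siYAP replicate 1, and without that library the ratio was 189 (86.7 to 516). SPRY2 passed the filter on low counts through HaCaT alone, so its fold changes within A431 carry no information.

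DUSP6, the cytoplasmic ERK phosphatase, changed its order between the lines with the kind of treatment. In the siRNA libraries it was at 76.4 to 92.5 CPM in A431 and at 8.14 to 17.1 CPM in HaCaT. In the vector libraries it was at 53.6 to 83.0 CPM in A431 and at 86.2 to 181 CPM in HaCaT. A431 was therefore higher under siRNA and HaCaT under vector, without overlap in either setting. SPRED1 changed its order in the same way, also without overlap. Under siRNA it was at 86.2 to 120 CPM in A431 and 50.1 to 69.4 CPM in HaCaT. Under vector it was at 77.9 to 89.6 CPM in A431 and 102 to 123 CPM in HaCaT. PHLDA1, which encodes a pleckstrin homology-like domain protein, went from 442 to 528 CPM in A431 against 80.7 to 117 CPM in HaCaT under siRNA to overlapping ranges of 222 to 296 and 209 to 443 CPM under vector. SPRY4 likewise ran from 8.72 to 10.8 CPM in A431 and from 0.44 to 1.51 CPM in HaCaT under siRNA, and from 4.32 to 7.88 and from 1.88 to 9.59 CPM under vector. Under siRNA, ETV5 was at 40.8 to 45.9 CPM in A431 and 0.15 to 1.60 CPM in HaCaT. ETV4 was there at 18.9 to 36.3 and 1.15 to 7.44 CPM. Under vector both overlapped between A431 and HaCaT, ETV5 at 24.5 to 54.6 and 10.2 to 34.7 CPM. The vector ranges of ETV4 were 22.6 to 30.9 and 10.6 to 27.5 CPM.

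DUSP5, DUSP4 and EGR1 gave 3 other patterns. DUSP5, the ERK-inducible nuclear phosphatase, was higher in A431 under each treatment, with a log2 difference of 1.85 (SE 0.14, edgeR quasi-likelihood FDR = 6e-08) and ranges of 79.7 to 381 CPM in A431 and 18.1 to 99.5 CPM in HaCaT. EGR1 was above every HaCaT library in every A431 library, at 15.7 to 48.1 CPM against 7.98 to 13.9 CPM. DUSP4 had no overlap under siRNA, at 47.4 to 86.4 CPM in A431 and 18.1 to 27.3 CPM in HaCaT, but overlapped in the YAP5SA libraries.

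Per kilobase of the longest protein-coding transcript (GENCODE v29), DUSP5 had the highest median level in both lines, 70.2 CPM per kilobase in A431 and 23.1 in HaCaT. PHLDA1 came next at 45.8 and 20.2 CPM per kilobase, and then DUSP6 at 17.4 and 11.7. The ranges of DUSP5 and PHLDA1 overlapped in both lines (31.2 to 149 and 27.5 to 65.4 CPM per kilobase in A431), and that of DUSP6 in HaCaT (1.85 to 41.2) overlapped both. The order also varied with the treatment. In the HaCaT YAP5SA libraries PHLDA1 averaged 50.9, DUSP6 37.0 and DUSP5 12.3 CPM per kilobase. The lowest median was that of SPRY2 in A431 at 0.01 CPM per kilobase and that of SPRY4 in HaCaT at 0.34. Some genes overlap another RefSeq gene: DUSP6 with the POC1B-DUSP6 readthrough, ETV4 with DHX8, and SPRY4, ETV5 and PHLDA1 with non-coding transcripts. Whether counting used strand was not given, so reads of those partners cannot be told apart from the members' own, and the assignment of the readthrough's reads is uncertain.

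**Figure D1:**
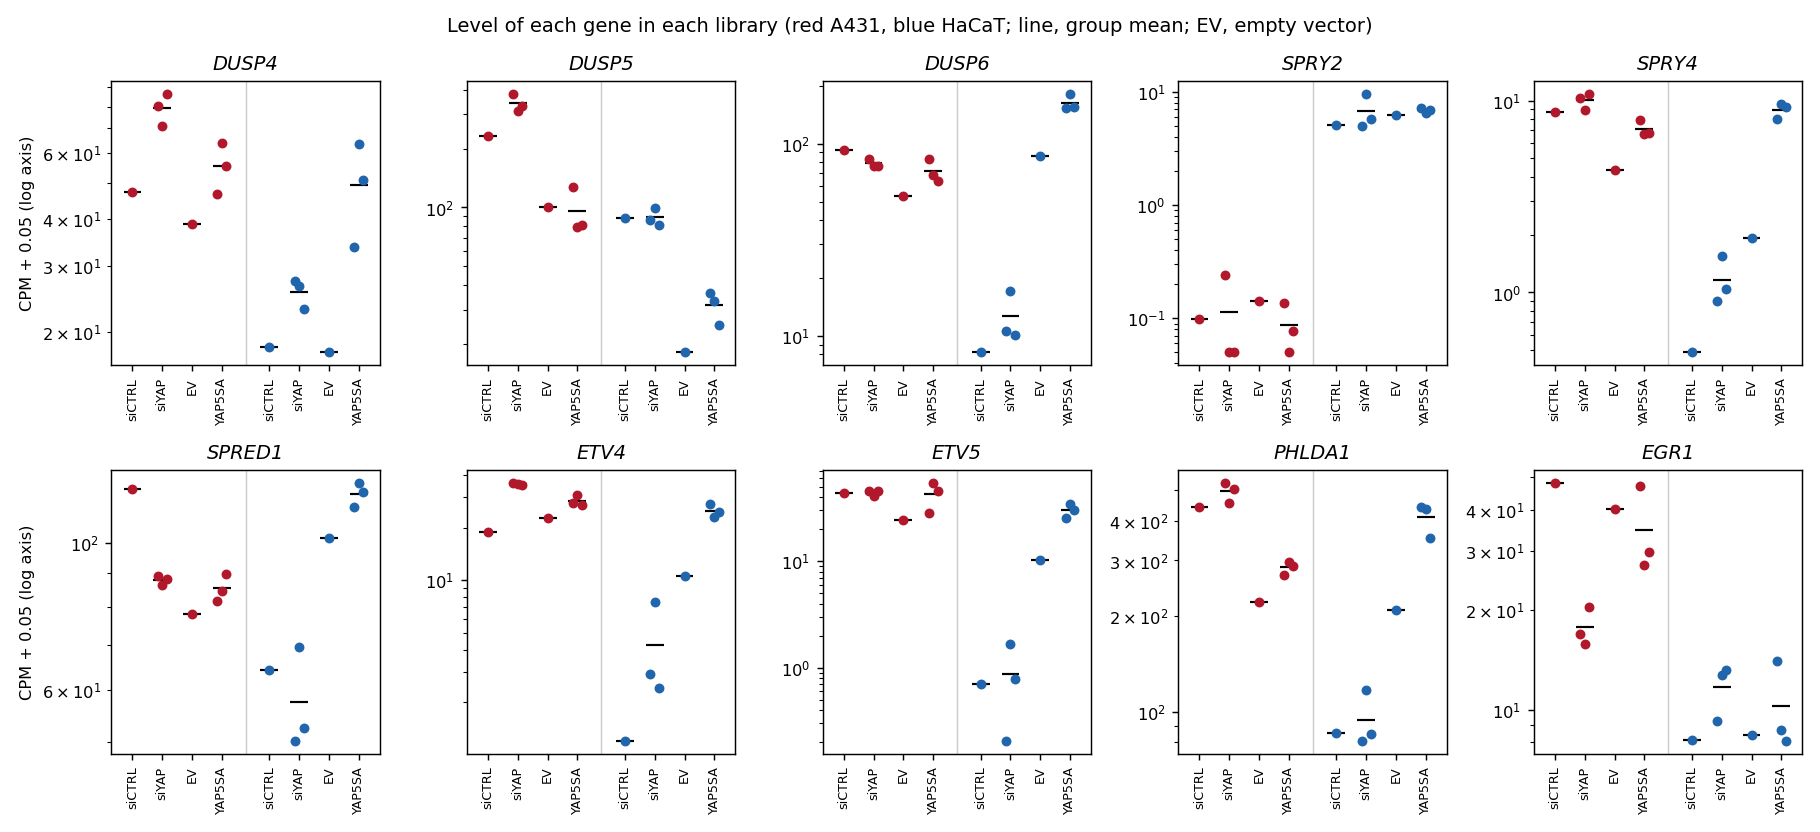
Level of each of the 10 genes in each of the 16 libraries as CPM + 0.05 on a log axis, by treatment (siCTRL, siYAP, EV for empty vector, YAP5SA), with A431 in red, HaCaT in blue and a black line at each group mean (1 library per control, 3 per treated group). In HaCaT, DUSP6, SPRY4, ETV4, ETV5 and PHLDA1 rise from left to right, lowest under siRNA and highest with YAP5SA, whereas in A431 SPRY2 lies near the bottom of its axis and EGR1 is lowest in the 3 siYAP libraries.

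YAP1 depletion in A431 cells was compared with siCTRL to ask whether these genes depend on YAP. EGR1 was the one member called, and it fell. Its level was 48.1 CPM in siCTRL and 16.9, 15.7 and 20.4 CPM in siYAP, so that the 3 depleted libraries lay below the control without overlap. The log2 fold change was -1.45 (SE 0.32, edgeR quasi-likelihood test with Benjamini-Hochberg adjustment, FDR = 0.021), to 0.366 of the control level. Thus 1 of 10 members was called lower and 0 higher, where 3.78% of all tested genes were called lower and 1.81% higher. The call was lost without siYAP replicate 1 (FDR = 0.0574) or without siYAP replicate 2 (FDR = 0.0585). In the same libraries the summed endothelial markers were 33.8 CPM in siCTRL and 18.4 to 22.0 CPM in siYAP, while the keratin gene KRT14 rose, and the part of either in the EGR1 result was not tested.

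DUSP4, DUSP5 and ETV4 did not follow EGR1 in A431. DUSP4 was at 47.4 CPM in siCTRL and at 80.4, 71.1 and 86.4 CPM in siYAP (log2 fold change 0.74, SE 0.28, FDR = 0.142). ETV4, which encodes a PEA3-group ETS factor induced by ERK, was at 18.9 CPM and at 36.3, 35.5 and 35.4 CPM (0.92, SE 0.42, FDR = 0.217). Both lay above the control in 3 of 3 libraries without passing the quasi-likelihood test. DUSP5 was at 231 CPM in siCTRL and 381, 312 and 329 CPM in siYAP (0.56, SE 0.27, FDR = 0.236), whereas SPRED1, a Sprouty-related inhibitor that acts with neurofibromin on RAS, was at 120 CPM and 89.0, 86.2 and 88.1 CPM (-0.46, SE 0.16, FDR = 0.105). These 4 genes moved in both directions, and the remaining members, DUSP6, SPRY4, ETV5 and PHLDA1, had log2 fold changes from -0.23 to 0.20. Of these, DUSP6 was below its control in 3 of 3 libraries, at 92.5 CPM in siCTRL and 83.5, 76.4 and 76.9 CPM in siYAP (-0.23, FDR = 0.622). The log2 fold change of SPRY2, 0.79, rests on 9 counts or fewer per library. Further members passed under some alternatives. With the lines fitted separately, or without HaCaT siYAP replicate 2, the count was 3, with ETV4 higher and SPRED1 lower. Without HaCaT YAP5SA replicate 1, or with a replicate block shared by the lines, it was 2, with DUSP4 higher (FDR = 0.0388 and 0.0386).

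In HaCaT cells no member was called on YAP1 depletion, where 2.37% of tested genes were called higher and 3.3% lower. Among the 10, 3 had an unadjusted p below 0.05 in edgeR, and DESeq2 called 1, ETV4. ETV4 was at 1.15 CPM (21 counts) in siCTRL and at 2.87, 7.44 and 2.38 CPM in siYAP. Its log2 fold change was 1.85 (edgeR FDR = 0.0851, SE 0.58). It passed without siYAP replicate 2 (FDR = 0.024) or without siYAP replicate 3 (FDR = 0.0386). SPRY4 was at 0.44 CPM (8 counts) in siCTRL and at 0.85, 1.51 and 0.99 CPM in siYAP (1.33, SE 0.44, FDR = 0.102). DUSP6 was at 8.14 CPM and at 10.6, 17.1 and 10.0 CPM (0.62, SE 0.28, FDR = 0.231). All 3 genes were low in HaCaT siRNA libraries, above the control in each siYAP library, and highest in siYAP replicate 2. ETV5, the other PEA3-group factor, was lower still, at 12 counts (0.66 CPM) in siCTRL and at 0.15, 1.60 and 0.73 CPM in siYAP, of which the lowest was 4 counts. With siCTRL and empty vector as a pair of controls, DUSP6 and ETV5 turned direction, to -1.92 (FDR = 0.0329) and -2.80 (FDR = 0.0251). The HaCaT empty vector library had DUSP6 at 86.2 CPM and ETV5 at 10.2 CPM, and the siYAP libraries had no vector. EGR1 went the other way from A431, at 8.03 CPM in siCTRL and 9.22, 12.6 and 13.1 CPM in siYAP (0.54, SE 0.38, FDR = 0.477). DUSP4 was above the control in 3 of 3 libraries, at 18.1 CPM in siCTRL and 27.3, 26.5 and 22.9 CPM in siYAP (0.49, SE 0.29, FDR = 0.373). DUSP5 (0.01), PHLDA1 (0.13), SPRED1 (-0.16), ETV5 (0.26) and SPRY2 (0.39) had the smallest log2 fold changes, with FDR from 0.636 to 1. The summed endothelial markers were 59.2 CPM in this siCTRL library and 15.99 to 19.6 CPM in siYAP, and their part in these values was not tested.

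Over the mean of both lines, ETV4 was the one member called with siYAP, and it rose. Its log2 fold change was 1.38 (SE 0.36, edgeR quasi-likelihood FDR = 0.0237), and it was above its control in 6 of 6 siYAP libraries. For comparison, 5.3% of all tested genes were called higher and 7.68% lower. With siCTRL and empty vector of a line used as a pair of controls, the ETV4 value dropped to 0.13 (FDR = 0.851), while DUSP4 passed (0.70, FDR = 0.0105). DUSP4 (0.62, FDR = 0.0599), SPRY4 (0.76, FDR = 0.0747) and SPRED1 (-0.31, FDR = 0.0828) came next to the threshold. DUSP5 (0.28), DUSP6 (0.19), ETV5 (0.13), PHLDA1 (0.15), EGR1 (-0.46) and SPRY2 (0.59, without usable counts in A431) had FDR from 0.25 to 0.902. DUSP4 joined ETV4 without A431 YAP5SA replicate 1 (FDR = 0.0483) and without HaCaT YAP5SA replicate 1 or 2 (FDR = 0.0119 and 0.0253), and SPRED1 did so, as lower, without HaCaT siYAP replicate 2 (FDR = 0.0101). The replicate block shared by the lines called 3, adding DUSP4 and EGR1 (FDR = 0.0133 and 0.0437).

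The difference between the lines in the siYAP response was tested as an interaction, and no member passed, against 0.17% of all tested genes. In edgeR 2 members had an unadjusted p below 0.05, and DESeq2 called 1. EGR1 had the largest of these differences, 1.99 on the log2 scale for HaCaT minus A431 (SE 0.51, FDR = 0.151). It passed in DESeq2 (FDR = 0.0113) and with the replicate block shared by the lines (FDR = 0.0338). SPRY4 (1.13), ETV4 (0.93), DUSP6 (0.85), SPRED1 (0.29) and ETV5 (0.25) were fitted as higher in HaCaT, and DUSP4 (-0.25), DUSP5 (-0.56), PHLDA1 (-0.03) and SPRY2 (-0.39) as lower, with FDR from 0.388 to 0.997. The SPRY2 difference was without usable counts in A431, so its direction carries no information.

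YAP5SA in HaCaT cells gave the most member calls of any comparison with a control. DUSP4, DUSP6, SPRY4 and PHLDA1 rose against empty vector, so that 4 of 10 members were called higher and 0 lower, where 6.99% of all tested genes were called higher and 6.64% lower. The members' median log2 fold change was 0.95, against 0.01 over all tested genes. All 10 fitted changes were above 0.

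SPRY4 changed most. It was at 1.88 CPM in empty vector and at 7.97, 9.59 and 9.23 CPM in YAP5SA, a log2 fold change of 2.25 (4.74-fold, SE 0.33, edgeR quasi-likelihood FDR = 0.0033). DUSP4 was at 17.6 CPM and at 33.7, 63.4 and 50.8 CPM (1.49, SE 0.30, FDR = 0.0101). The 3 YAP5SA libraries were above the control for both genes, closely grouped for SPRY4 and spread for DUSP4, whose lowest value was in replicate 1. SPRY4 and DUSP4 passed under every alternative that tested them.

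PHLDA1 was at 209 CPM in empty vector and at 443, 437 and 354 CPM in YAP5SA (0.97, SE 0.21, edgeR FDR = 0.0114). DUSP6 was at 86.2 CPM and at 153, 181 and 154 CPM (0.92, SE 0.25, FDR = 0.0304). Both about doubled in level, and both calls were lost when HaCaT was fitted alone (FDR = 0.0512 for PHLDA1 and 0.0835 for DUSP6). DUSP6 also missed the threshold without HaCaT YAP5SA replicate 3 (FDR = 0.0506) and with siCTRL and empty vector as a pair of controls (1.78, FDR = 0.0694).

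The PEA3 factors and DUSP5 lay just outside the threshold. ETV5 was at 10.2 CPM in empty vector and at 25.2, 34.7 and 29.9 CPM in YAP5SA (1.55, SE 0.50, edgeR FDR = 0.0534). ETV4 was at 10.6 CPM and at 27.5, 23.1 and 24.6 CPM (1.24, SE 0.43, FDR = 0.066). DUSP5 was at 18.1 CPM and at 36.6, 33.0 and 24.9 CPM (0.80, SE 0.28, FDR = 0.0692). In each case the 3 YAP5SA libraries were above the control. With a replicate block shared by the lines, all 3 passed (FDR = 0.0397, 0.0491 and 0.0245 in that order) and the count of members called rose to 7. With the pair of controls ETV4 (2.06, FDR = 0.0417) and ETV5 (2.42, FDR = 0.0498) passed. SPRY2 (0.13), SPRED1 (0.22) and EGR1 (0.29) had the smallest log2 fold changes, with FDR from 0.361 to 0.898. The endothelial and immune markers CDH5 and LYZ and the keratinocyte markers SFN and KRT17 also rose in these libraries. The summed endothelial markers stood at 2.10 CPM in empty vector and 1.18 to 2.38 CPM in YAP5SA and the summed immune markers at 0.80 and 1.71 to 2.33 CPM, beside summed keratinocyte markers of 4564 CPM or more, and their part in these results was not tested.

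In A431 cells no gene at all was called between YAP5SA and empty vector. The background was therefore 0% in each direction, and none of the 10 members was called. YAP1 itself was among the genes not called, at 124 CPM in empty vector and 1495, 3245 and 2940 CPM in YAP5SA. The lack of calls thus does not show a lack of change. One member, SPRY4, had an unadjusted p below 0.05 in edgeR, and DESeq2 called 0 members. Over all genes, 828 had an unadjusted p below 0.05 and DESeq2 called 3. Without YAP5SA replicate 1, 87 genes were called, none of them a member. SPRY4 was at 4.32 CPM in empty vector and at 7.88, 6.62 and 6.76 CPM in YAP5SA (0.71, SE 0.30, FDR = 0.803). ETV5 was at 24.5 CPM and at 28.5, 54.6 and 45.3 CPM (0.80, SE 0.47, FDR = 0.808), and DUSP4 at 38.8 CPM and at 46.7, 64.0 and 55.5 CPM (0.51, SE 0.28, FDR = 0.803). The YAP5SA libraries lay above the control for these 3 genes, with replicate 1 lowest for ETV5 and DUSP4. DUSP6, at 53.6 CPM and then 83.0, 68.5 and 63.8 CPM, and PHLDA1, at 222 CPM and then 271, 296 and 289 CPM, were also above it in 3 of 3 libraries, with log2 fold changes of 0.42 (SE 0.25) and 0.36 (SE 0.20). EGR1 overlapped its control, at 40.1 CPM in empty vector and 47.1, 27.1 and 29.7 CPM in YAP5SA. DUSP5 did so as well, at 100.1 CPM and then 128, 79.7 and 81.3 CPM. ETV4 (0.33, SE 0.40) and SPRED1 (0.13, SE 0.16) were above their controls in 3 of 3 libraries, with FDR = 0.884 for each, and SPRY2 had 2 counts or fewer in each of these libraries.

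Over the mean of both lines, SPRY4 (1.48, SE 0.22, edgeR quasi-likelihood FDR = 0.0083), DUSP4 (1.0, SE 0.20, FDR = 0.0328) and PHLDA1 (0.67, SE 0.14, FDR = 0.0379) rose with YAP5SA, each above its control in 6 of 6 libraries. DUSP6 (0.67, FDR = 0.0642), ETV5 (1.18, FDR = 0.0837) and ETV4 (0.79, FDR = 0.151) did not pass, and DUSP5 (0.37), SPRED1 (0.18), EGR1 (0.04) and SPRY2 (-0.56, without usable counts in A431) had FDR from 0.277 to 0.957. That is 3 of 10 members called higher and 0 lower, where 1.38% of all tested genes were called higher and 0.661% lower. The count fell to 1, SPRY4, without A431 siYAP replicate 2 or 3 or A431 YAP5SA replicate 2 or 3. It rose to 5 without A431 YAP5SA replicate 1 or HaCaT YAP5SA replicate 1, where DUSP6 and ETV5 passed, and without HaCaT siYAP replicate 2, where DUSP6 and ETV4 passed. DUSP4 alone was lost without HaCaT siYAP replicate 1 or HaCaT YAP5SA replicate 3, and PHLDA1 alone without A431 siYAP replicate 1 or HaCaT siYAP replicate 3, or with siCTRL and empty vector as a pair of controls (0.63, FDR = 0.11).

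The interaction between line and YAP5SA was not called for any member, against 0.0886% of all tested genes, with 4 members at an unadjusted p below 0.05 in edgeR and 1 called by DESeq2. All 10 differences, that of SPRY2 without usable counts in A431, were fitted as larger in HaCaT, with a median of 0.80 on the log2 scale, against -0.02 over all tested genes. SPRY4 differed most among the genes with counts in both lines, by 1.53 (SE 0.42, FDR = 0.0782), and passed in DESeq2 (FDR = 0.0165). DUSP4 (0.97), ETV4 (0.91), DUSP5 (0.86), ETV5 (0.75), PHLDA1 (0.61), DUSP6 (0.50), EGR1 (0.50) and SPRED1 (0.09) had FDR from 0.169 to 0.844. Leaving out A431 YAP5SA replicate 1 called SPRY4 and DUSP5 (FDR = 0.0464 and 0.0419), and leaving out HaCaT YAP5SA replicate 1 called DUSP4 (FDR = 0.0399). The larger count of calls in HaCaT is therefore not shown to be a difference between the lines for any single gene. YAP1 mRNA in the YAP5SA libraries averaged 2560 CPM in A431 and 13291 CPM in HaCaT, and its part in these differences was not tested.

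**Figure D2:**
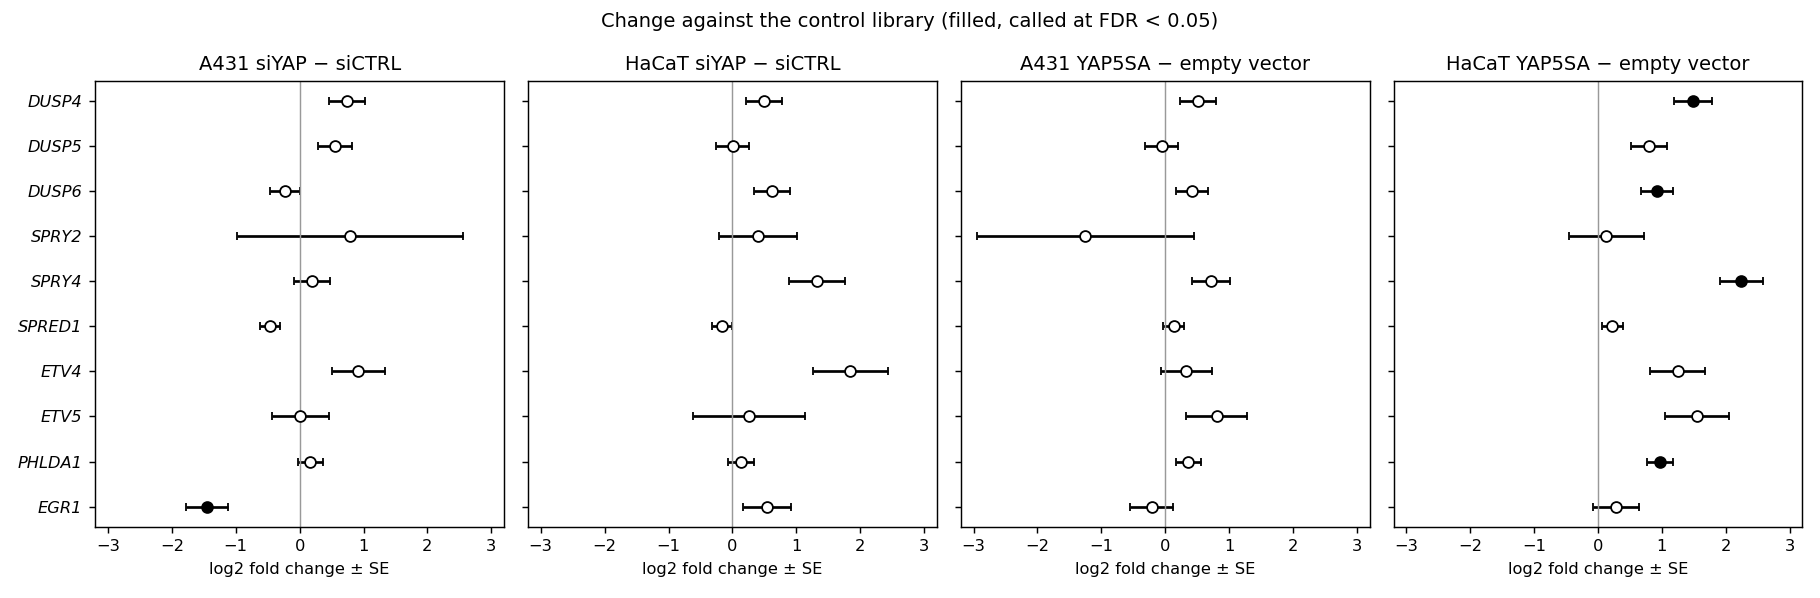
Log2 fold change (x axis) of each of the 10 genes against the single control library of its line, with bars of 1 SE from the edgeR fit on all 16 libraries and filled points for genes called at FDR below 0.05, in 4 panels (siYAP minus siCTRL and YAP5SA minus empty vector, in A431 and HaCaT). The filled points are EGR1 at -1.45 in A431 siYAP and DUSP4, DUSP6, SPRY4 and PHLDA1 in HaCaT YAP5SA, and the wide bars of SPRY2 in A431 rest on 9 counts or fewer per library.

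The siCTRL and empty vector libraries of a line also differed from each other, and with 1 library each these differences have no test. In HaCaT, empty vector was at or above 2-fold siCTRL for 5 of 10 members, where 18.1% of genes with a mean log2 CPM above 1 reached that fold. ETV5 was 15.5-fold higher (10.2 against 0.66 CPM), DUSP6 10.6-fold (86.2 against 8.14 CPM) and ETV4 9.22-fold (10.6 against 1.15 CPM). SPRY4 was 4.30-fold and PHLDA1 2.44-fold higher. DUSP5 went the other way, at 0.204 of its siCTRL level (18.1 against 88.6 CPM), and DUSP4, at 17.6 against 18.1 CPM, and EGR1, at 8.34 against 8.03 CPM, were nearly level.

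In A431 none of the 9 members detected in the controls reached 2-fold higher in empty vector, where 5.38% of genes did. DUSP5 was at 0.433, SPRY4 at 0.495 and PHLDA1 at 0.502 of the siCTRL level. DUSP5 was thus lower in empty vector in both lines, while DUSP6, SPRY4, SPRED1, ETV5 and PHLDA1 were higher with empty vector in HaCaT and lower in A431. SPRED1 differed least between the HaCaT controls among these, at 1.58-fold its siCTRL level, and was at 0.647 of it in A431. The marker sums moved with the same step. In HaCaT the summed fibroblast markers were 21.5 to 27.9 CPM in the 4 siRNA libraries and 0.66 to 1.79 CPM in the 4 vector libraries, and the summed keratinocyte markers were 1927 to 2656 and 4564 to 7875 CPM. The HaCaT endothelial sum went from 15.99 to 59.2 CPM under siRNA to 1.18 to 2.38 CPM under vector. In A431 the endothelial sum was 18.4 to 33.8 and 3.88 to 5.92 CPM, the fibroblast sum 10.2 to 14.8 and 2.45 to 5.46 CPM, and the keratinocyte sum 2937 to 3851 and 4529 to 5402 CPM. Their part in the members' difference was not tested, and culture, delivery method and control reagent cannot be told apart between the siRNA and vector libraries.

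**Figure D3:**
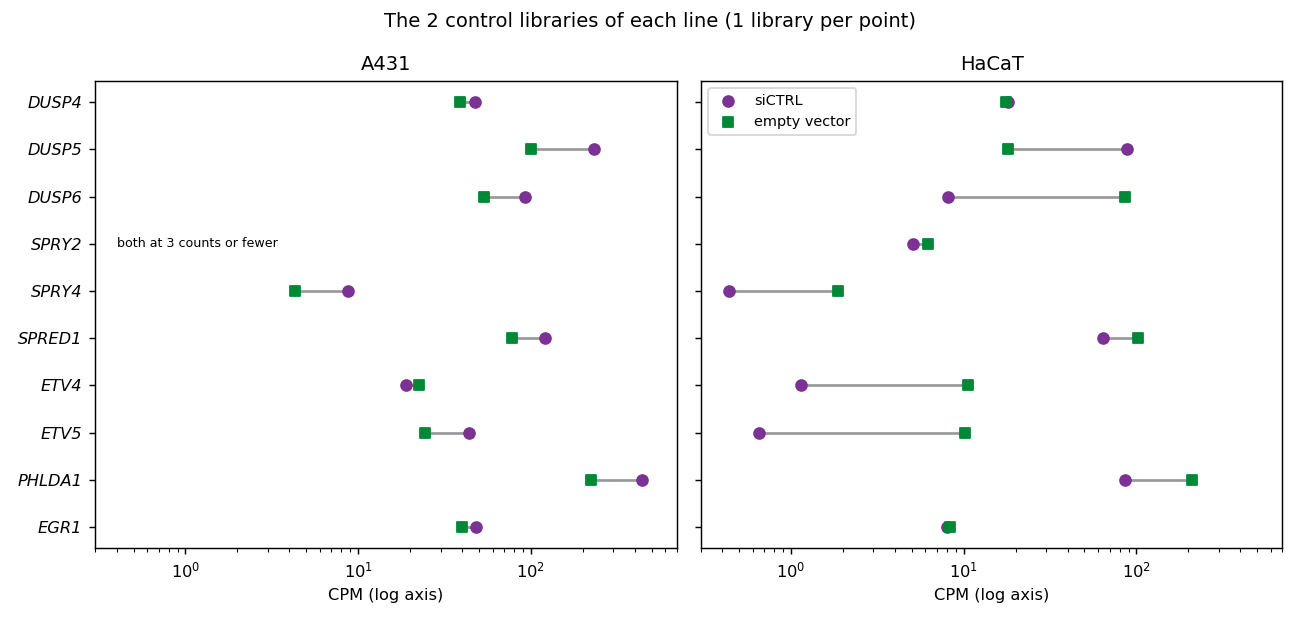
CPM on a log axis of each of the 10 genes in the siCTRL library (circle) and the empty vector library (square) of A431 (left) and HaCaT (right), joined by a line, 1 library per point. In HaCaT the squares lie far to the right of the circles for DUSP6, ETV4 and ETV5 and to the left for DUSP5, and in A431 SPRY2 is not drawn because both libraries had 3 counts or fewer.

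A direct comparison of YAP5SA with siYAP libraries, 3 against 3 in each line, carried this control difference with it. In HaCaT 7 members were called higher with YAP5SA and DUSP5 lower, where 60% of all tested genes were called in one direction or the other. ETV5 had the largest difference, from 0.83 ± 0.73 CPM in siYAP to 29.9 ± 4.7 CPM in YAP5SA (SD, n = 3), or 5.24 on the log2 scale (SE 0.43, edgeR quasi-likelihood FDR = 2.5e-07). DUSP6 went from 12.6 ± 3.9 to 163 ± 16 CPM (3.70, SE 0.19, FDR = 5.9e-09). SPRY4 (3.01), ETV4 (2.60), PHLDA1 (2.13), SPRED1 (1.05) and DUSP4 (0.95) were the other genes called higher, and the YAP5SA triplicate lay above the siYAP triplicate for each of the 7. DUSP5 fell from 89.0 ± 9.4 to 31.5 ± 6.0 CPM (-1.50, SE 0.19, FDR = 1.2e-05). SPRY2 (0.03) and EGR1 (-0.19) overlapped between the triplicates.

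In A431 the same comparison called 3 members lower and 1 higher, where 34.6% of all tested genes were called. DUSP5 fell from 341 ± 36 CPM in siYAP to 96.2 ± 27.2 CPM in YAP5SA (-1.83, SE 0.19, edgeR FDR = 2e-05) and PHLDA1 from 496 ± 36 to 285 ± 13 CPM (-0.80, SE 0.14, FDR = 0.00072). DUSP4 fell from 79.3 ± 7.7 to 55.4 ± 8.7 CPM (-0.52, SE 0.19, FDR = 0.0482), a call that was lost without any 1 of 9 libraries (all 3 A431 siYAP, A431 YAP5SA replicates 1 and 3, HaCaT siYAP replicates 1 to 3 or HaCaT YAP5SA replicate 3), with FDR from 0.0556 to 0.145, and with a replicate block among the treated libraries (FDR = 0.0583). EGR1 rose from 17.7 ± 2.4 to 34.7 ± 10.9 CPM (0.97, SE 0.25, FDR = 0.0076). SPRY4 (-0.50, FDR = 0.0649), ETV4 (-0.33), DUSP6 (-0.14), SPRED1 (-0.04) and ETV5 (-0.04) did not pass, nor did SPRY2, which had 9 counts or fewer per library. DUSP5 was the one member that fell from siYAP to YAP5SA in both lines.

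When each triplicate was first set against its own control, none of the 10 members was called in either line. In HaCaT DUSP6 changed from 3.70 to 0.30 on the log2 scale (FDR = 0.639) and ETV5 from 5.24 to 1.29 (FDR = 0.459), and ETV4 and DUSP5 turned direction, to -0.60 (FDR = 0.629) and 0.80 (FDR = 0.191). PHLDA1 kept a log2 difference of 0.84 (FDR = 0.0739) and DUSP4 of 0.99 (FDR = 0.129). DUSP4, which hardly differed between the HaCaT controls, had nearly the same value both ways. In A431 EGR1 was at 1.24 (FDR = 0.18) and PHLDA1 turned to 0.20 (FDR = 0.727). This alternative was chosen after seeing the data, and its error includes that of 2 single control libraries.

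**Figure D4:**
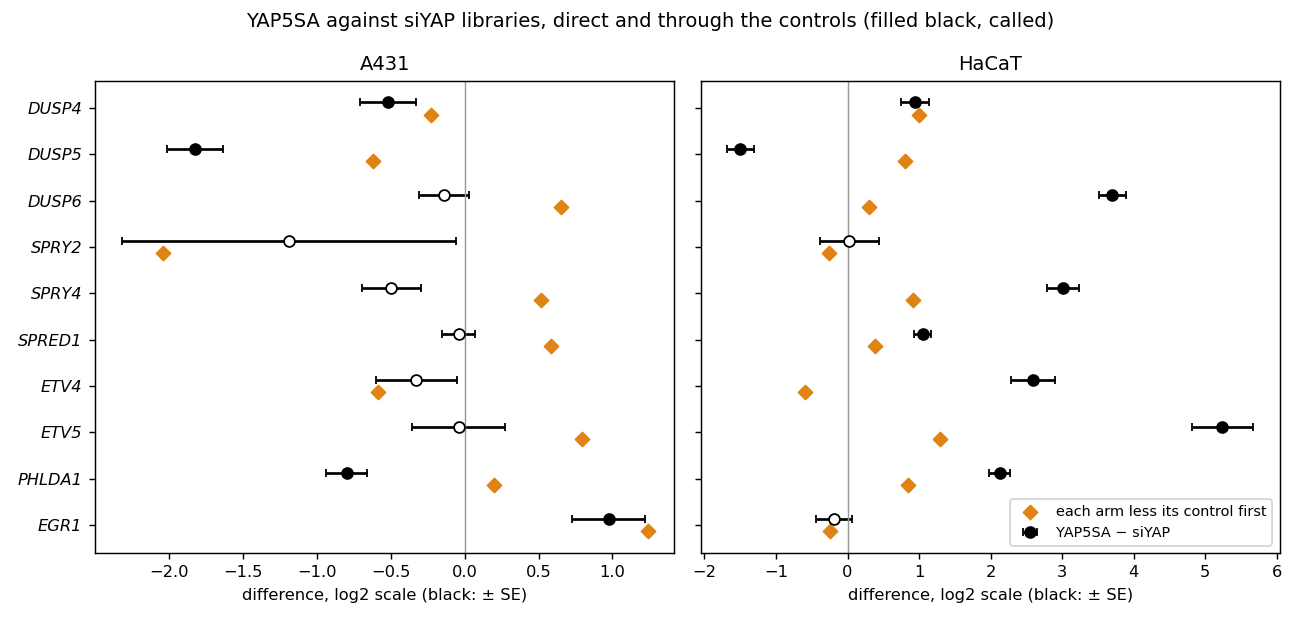
Log2 difference between the YAP5SA and siYAP triplicates for each of the 10 genes in A431 (left) and HaCaT (right, wider axis), directly as black circles with bars of 1 SE (filled where called) and after each triplicate was set against its own control library as orange diamonds. In HaCaT the diamonds of DUSP6, SPRY4, ETV4, ETV5 and PHLDA1 lie nearer 0 than the circles, and those of DUSP5 and ETV4 lie on the other side of 0.

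Other genes of the pathway, on lists drawn up with earlier results of these data known, were counted in the same fit. The counts for YAP5SA in HaCaT stand against the 6.99% of all tested genes called higher and 6.64% called lower. There, 3 of 13 tested further feedback genes rose and 1 fell, led by the phosphatase gene DUSP1 (1.31, SE 0.38, edgeR FDR = 0.036), SPRED2 (1.16, SE 0.24, FDR = 0.0108) and DUSP7 (0.85, SE 0.20, FDR = 0.0186). SPRED2 was at 8.28 CPM in empty vector and 15.8 to 19.9 CPM in YAP5SA, but at 20.05 CPM in siCTRL. Among further immediate early genes 7 of 19 rose and 1 fell. FOSL1, a FOS-family AP-1 subunit, led them, at 6.78 CPM in empty vector and 47.5 ± 7.2 CPM in YAP5SA (SD, n = 3; log2 fold change 2.81, FDR = 0.0033). NR4A1 (1.92, FDR = 0.0204) and FOSB (1.63, FDR = 0.0331) were near 1 CPM, at 0.57 and 0.48 CPM in empty vector. They averaged 2.18 and 1.48 CPM in YAP5SA but 2.97 and 2.15 CPM in siYAP, where FOSL1 averaged 1.28 CPM. Of 10 other ERK activity targets 4 rose, with HMGA1 (1.88, FDR = 0.00094), LIF (1.48, FDR = 0.0122) and PLAUR (1.47, FDR = 0.0368) the largest. HMGA1 was at 31.5 CPM in empty vector and 104 to 132 CPM in YAP5SA, but at 103 CPM in siCTRL. LIF and PLAUR were lower in siCTRL (6.01 and 4.59 CPM) than in empty vector (11.5 and 20.7 CPM).

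Among ERBB ligands and receptors, 3 of 10 rose with YAP5SA in HaCaT and none fell, against the same background of 6.99% higher and 6.64% lower. They were the EGFR ligands AREG, at 16.8 CPM in empty vector and 39.9 to 96.2 CPM in YAP5SA (1.86, SE 0.55, edgeR FDR = 0.0389), EREG, at 6.69 and 11.6 to 21.9 CPM (1.17, SE 0.31, FDR = 0.0277), and TGFA, at 89.2 and 150 to 213 CPM (1.0, SE 0.19, FDR = 0.008). All 3 ligands were also lower in HaCaT siCTRL than in empty vector, at 0.60, 0.33 and 49.0 CPM. Of 20 genes of the RAS-RAF-MEK-ERK cascade, 3 rose and 2 fell, among them ELK1 (0.89, FDR = 0.0429) and ARAF (0.90, FDR = 0.0056), which rose. Of 8 YAP targets 7 rose, led by ANKRD1 (4.62, FDR = 0.0018), CTGF (2.98, FDR = 0.0283) and CYR61 (2.81, FDR = 0.0033).

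With YAP5SA in A431, none of the genes on these lists was called, as 0% of all genes were, YAP1 included. With siYAP in A431, 1.81% of all tested genes were called higher and 3.78% lower. DUSP1 rose, from 4.36 CPM to 16.2 ± 1.9 CPM (SD, n = 3; 1.90, SE 0.40, edgeR FDR = 0.0157), as 1 of 13 further feedback genes, while none fell. Of 19 immediate early genes ZFP36 rose (1.13, FDR = 0.0356) and MCL1 (-1.0, FDR = 0.00085) and KLF10 (-0.55, FDR = 0.0449) fell. The cyclin gene CCND1 fell as 1 of 10 ERK activity targets, from 903 to 564 ± 21 CPM (-0.68, FDR = 0.0464). No ERBB gene was called, 3 of 20 cascade genes fell, among them ELK4 (-0.86, FDR = 0.0104) and RPS6KA3 (-0.69, FDR = 0.0141), and 1 of 8 YAP targets fell (AJUBA, -1.21, FDR = 0.009).

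With siYAP in HaCaT, where 2.37% of all tested genes were called higher and 3.3% lower, no further feedback gene, ERK activity target or ERBB gene was called. MCL1 fell there too (-0.92, SE 0.12, edgeR FDR = 0.001), as 1 of 19 immediate early genes. NRAS rose among 20 cascade genes (0.66, FDR = 0.0231), and 2 of 8 YAP targets fell, TGFB2 (-1.39, FDR = 0.0024) and AMOTL2 (-1.03, FDR = 0.0056).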

How the data were processed

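RNA-seq was analysed in 16 libraries of A431 and HaCaT cells. The authors deposited estimated counts per gene from RSEM on RefSeq gene models, after trimming reads to 75 bp. The submitters' processing notes name RSEM 1.2.11, edgeR and build hg19, and the study's methods give another RSEM release. RSEM shares ambiguous reads between genes, so overlapping or similar genes can exchange counts. Totals of 18115624 to 46791673 counts per library set the precision.

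Counts were rounded, and the 14673 genes that averaged over 10 counts were tested in edgeR 4.0.16 (R 4.3.3) with TMM factors (0.9135 to 1.074), 1 model of 8 groups with 8 residual degrees of freedom, quasi-likelihood tests and Benjamini-Hochberg adjustment over all genes of a comparison. Calls needed FDR below 0.05 and log2 CPM above 1, after the study's methods. SE is the log2 fold change divided by the square root of F. The script was checked on simulated data. The members and lists were chosen with earlier results of these data known. All 10 members were named in every comparison of the model, and from each other list up to 3 called genes with the largest change per line and treatment. One gene that this rule names is not reported here. Alternatives were RLE factors, DESeq2 1.42.0, other filters, each line alone, pooled controls, replicate blocks and leaving out each treated replicate.

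Replicate numbers in the labels were checked by correlating same-numbered libraries' deviations from their group means. Across the lines, YAP5SA libraries gave r = 0.398, 0.162 and 0.162 for replicates 1 to 3, and siYAP libraries 0.00363, 0.0989 and 0.256. An added fit had a replicate block shared by the lines. It treated the numbers as pairs for the siYAP as well as the YAP5SA libraries. Pairs of siYAP with YAP5SA libraries within a line gave r from -0.0636 to 0.111. All replicates differed by more than sampling noise. p-values against a control rest on the spread of the triplicates, since each control was 1 library.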

Additional observations from a re-analysis of the deposited data

Results flagged for a closer look

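In 3 cases the libraries of one line all moved one way against their control and those of the other line all the opposite way, or did not rise. DUSP6 with siYAP was below siCTRL in 3 of 3 A431 libraries (log2 fold change -0.23) and above it in 3 of 3 HaCaT libraries (0.62), a difference of 0.85 (edgeR interaction FDR = 0.388). EGR1 with siYAP was below siCTRL in 3 of 3 A431 libraries (-1.45) and above it in 3 of 3 HaCaT libraries (0.54), a difference of 1.99 (FDR = 0.151). SPRY2 with YAP5SA was above empty vector in 3 of 3 HaCaT libraries (0.13) and in 0 of 3 A431 libraries (-1.25), a difference of 1.39 (FDR = 0.681), but A431 had 2 counts or fewer in each of those libraries. None of the 3 differences passed the interaction test.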

How the results depend on the processing

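For the members, 2027 values were recomputed under 21 settings. Of these, 1928 stayed on their side of the threshold, 39 no longer passed it, 55 newly passed it and 5 reversed. Those 5 were called in the main fit or under the alternative. The 1928 include values, not called, whose sign changed. An example is ETV5 in HaCaT siYAP, from -0.51 to 0.77 on leaving out 1 replicate. RLE factors changed no call. The causes of changes were not tested. With siCTRL and empty vector as 2 controls, DUSP6 and ETV5 in HaCaT siYAP reversed to -1.92 (FDR = 0.0329) and -2.80 (FDR = 0.0251), giving 2 calls there. With each triplicate against its own control first (an alternative chosen after seeing the data), PHLDA1 in A431 (0.20) and DUSP5 (0.80) and ETV4 (-0.60) in HaCaT reversed between YAP5SA and siYAP, and 0 members were called in either line. Each line fitted alone gave 3 calls for A431 siYAP and 2 for HaCaT YAP5SA. DESeq2 gave 1 for HaCaT siYAP, 2 for siYAP over both lines and 1 for each interaction. Requiring more than 10 counts in every library, which left 7 members testable, gave 2 for siYAP over both lines. The replicate block shared by the lines (chosen after seeing the data) gave 2 for A431 siYAP, 3 for siYAP over both lines, 7 for HaCaT YAP5SA and 1 for the siYAP interaction. A replicate block among the treated libraries of a line gave 3 calls between YAP5SA and siYAP in A431 and 8 in HaCaT, and 9 calls between the lines. The shared block changed no other call beyond DUSP6, which passed with YAP5SA over both lines (FDR = 0.0449). Leaving out 1 replicate gave 0 to 3 calls for A431 siYAP, 0 to 1 for HaCaT siYAP, 1 to 2 for siYAP over both lines, 3 to 6 for HaCaT YAP5SA, 1 to 5 for YAP5SA over both lines, 0 to 2 for the YAP5SA interaction, 3 to 5 between YAP5SA and siYAP in A431 and 9 to 10 between the lines. No control could be left out, since each was 1 library. SPRY2 in A431, and SPRY4, ETV4 and ETV5 in the HaCaT siRNA libraries, are limited by counts as low as 0 to 21.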

Other observations

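The genes most like the mean member profile, after centring log2 CPM on each line's mean over the 16 libraries, were RANGRF (r = 0.938), IRS1 (0.937), DKK3 (0.932), MFHAS1 (0.932) and KAZN (0.932). Within HaCaT their r was 0.96, 0.958, 0.958, 0.947 and 0.975 in that order, and within A431 0.709, 0.922, 0.545, 0.844 and 0.628. In HaCaT, DKK3 stood at 2.79 CPM in siCTRL, 7.83 in siYAP, 23.2 in empty vector and 57.1 in YAP5SA, and IRS1, an adaptor of the insulin receptor, at 22.3, 22.7, 27.2 and 34.7 CPM. In A431, DKK3 was at 91.2 CPM in siCTRL, 149 in siYAP, 102 in empty vector and 101 in YAP5SA. IRS1 was there at 16.9 CPM in siCTRL, 17.5 in siYAP, 13.4 in empty vector and 15.1 in YAP5SA. IRS1 was thus higher with vector than with siRNA in HaCaT and lower in A431, and the r values rest largely on libraries that fall into siRNA and vector sets.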
